A study of Homo sapiens with 24 samples.

Results

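The comparison described here sets an androgen against an antiandrogen drug after the same short exposure. LNCaP cells treated with DHT (dihydrotestosterone) for 4 h were compared with LNCaP cells treated with enzalutamide, labelled MDV, for 4 h. Ligand and time in the sample labels define the libraries compared, which are 4 of the 24 samples of the series, 2 for each ligand. LNCaP is an androgen-responsive prostate cancer cell line, and every sample is this 1 line. The cells were grown in complete RPMI medium, then kept for 3 days in phenol red-free RPMI with charcoal-stripped serum, which holds little steroid, and then given 10 nM DHT or 10 µM enzalutamide. The doses of the ligands differ, so a difference between them is a difference between these treatments and not between equal amounts of drug. Poly(A)-enriched RNA was sequenced from strand-directional libraries, and the replicates are described as biological replicates.

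The whole ligand experiment has 12 samples: the 4 above, 4 samples of the same ligands at 24 h, and 4 of vehicle with no time given. The 24 h and vehicle samples enter here to share 1 estimate of the spread, and vehicle also to place the 4 h levels. The contrast between the ligands is also read in the 24 h samples and compared with that at 4 h. The other 12 samples of the series, an siRNA experiment, were not used. The direct comparison asks which transcripts separate cells given the agonist from cells given the antagonist after the shorter of the exposures.

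DHT is the potent natural androgen of the prostate, and androgen signalling acts through androgen response elements in DNA to raise the transcription of prostate genes such as the kallikreins. Enzalutamide is an antagonist used against prostate cancer that blocks this signalling. The integrated stress response (ISR) is a separate programme in which the factor ATF4, translated when eIF2α is phosphorylated, raises genes for amino acid supply through C/EBP-ATF response elements.

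The libraries held 53145781 and 53779493 estimated counts for DHT and 42131436 and 49283955 for enzalutamide, within the range of 38894876 to 59985287 of the ligand experiment. The mean chi-square per gene between replicates, which is 1 for sampling noise alone, was 2.03 for the DHT pair and 9.83 for the enzalutamide pair, the largest of the 5 conditions. All 10 luminal prostate markers were above 0 in every library. Their summed level was 6133 and 6123 CPM (a gene's counts scaled to a common library size with TMM factors) in DHT and 4420 and 4422 CPM in enzalutamide, and the list holds androgen-induced genes. The 15 markers of basal, stromal, endothelial, leukocyte and neuroendocrine cells summed to 34.1 to 41.8 CPM in these 4 libraries, with 4 to 8 of them at a rounded count of 0 and COL1A1 the most abundant. In the column names both DHT libraries carry one prefix and both enzalutamide libraries carry another, so ligand and prefix cannot be told apart in the direct comparison. No source used here says what the prefix marks. The labels list 4 vehicle samples, but 3 of the 4 vehicle columns carry replicate number 1, one under each prefix. They were taken here as runs of 1 sample, a reading of the column names that the labels do not settle. The mean chi-square per gene was 1.53 to 1.56 among these columns and 3.56 to 3.74 against replicate 2. The columns were thus closer to each other, though above the value for sampling noise alone. With every vehicle column as its own sample, 1477 genes were higher in DHT and 1130 lower. For some genes below, the difference is also given with each ligand set over the vehicle run of its own prefix.

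After 4 h, 1320 of 15555 genes tested (8.49%) were higher in DHT than in enzalutamide and 1133 (7.28%) were lower, at an adjusted p below 0.05 in edgeR's quasi-likelihood test. The groups did not overlap for 26.9% of genes with DHT higher and 27.9% with DHT lower. Most of the called differences were small. Above 2-fold, 129 genes were higher (0.829%) and 60 were lower (0.386%) with the same adjusted p, and 176 (1.13%) and 108 (0.694%) with an unadjusted p below 0.05. The median log2 fold change over all genes tested was -0.01. Among non-overlapping genes whose average log2 CPM reached 1, the largest positive differences included the known androgen targets KLK2, SGK1 and TMPRSS2, and the largest negative ones the ISR genes CHAC1, DDIT3, SESN2 and TRIB3. The counts depended on the libraries in the fit, and fell most when either DHT library at 4 h was left out. Leaving out either enzalutamide library at 24 h, which is outside this contrast, also gave fewer lower genes. Fitted to the 4 libraries alone, 910 genes were higher and 668 were lower, so both counts also depended on the spread shared with the other conditions.

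**Figure D1:**
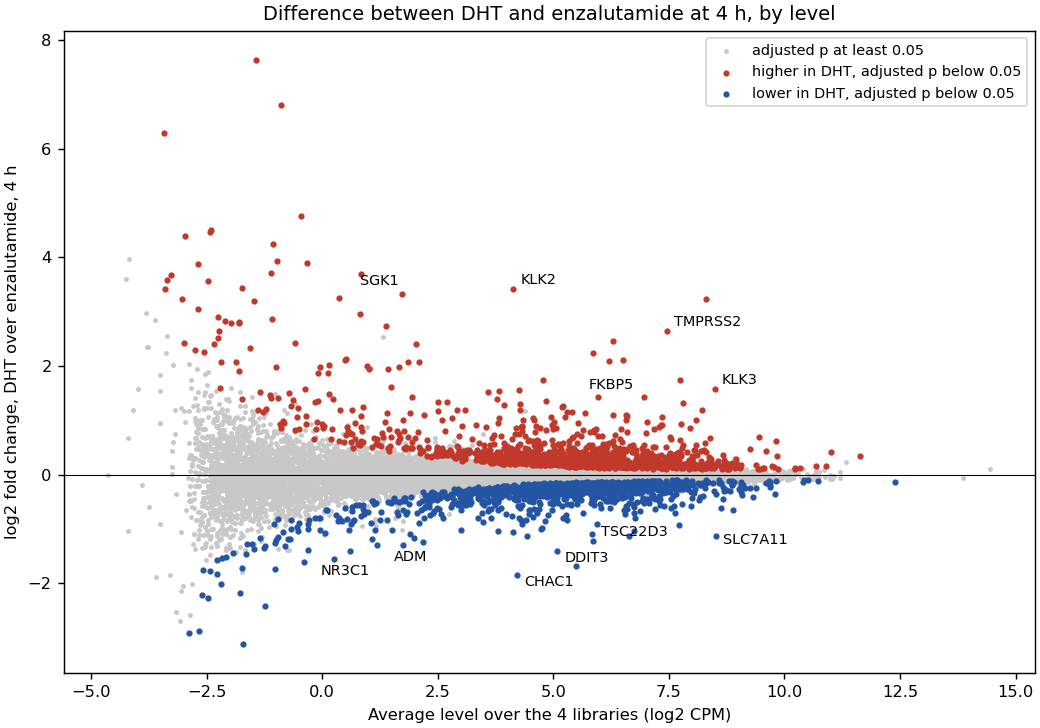
Each point is 1 of the 15555 genes tested; the x axis is its average level over the 4 libraries (log2 CPM) and the y axis its log2 fold change of DHT over enzalutamide at 4 h. Red points (1320) were higher and blue points (1133) lower at an adjusted p below 0.05, and the highest labelled gene, KLK2, sits at 3.41 while CHAC1 sits at -1.86.

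All 34 genes known to be induced by androgen in prostate cells were tested. Of these, 29 were higher in DHT, beside 8.49% of all genes, and 5 were not called. Their median log2 fold change was 1.11, beside -0.01 over all genes, and 19 exceeded 2-fold. The range ran from -0.01 for MED28 to 3.44 for STEAP4, a metalloreductase. The members that were not called were NNMT (0.95), KLK15 (0.64), GNMT (0.42), STEAP2 (0.07) and MED28 (-0.01).

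The kallikreins are secreted serine proteases of the prostate, and KLK3 encodes prostate-specific antigen. KLK2 and KLK3 lie side by side in a cluster on chromosome 19, and the 250 bases before their starts are shown because these are the kallikreins with the largest differences and the windows hold an androgen response element. Sequences and coordinates are from RefSeq, build GRCh38.p14, written 5′ to 3′ on the gene's strand, and the capitals mark a match to GNACANNNTGTNC with at most 1 mismatch on either strand.
KLK3, chr19:50854665-50854914, plus strand: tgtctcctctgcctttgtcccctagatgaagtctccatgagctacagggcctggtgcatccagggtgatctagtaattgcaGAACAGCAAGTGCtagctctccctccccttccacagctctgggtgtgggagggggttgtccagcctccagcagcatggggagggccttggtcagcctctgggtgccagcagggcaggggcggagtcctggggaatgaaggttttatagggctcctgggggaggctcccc
KLK2, chr19:50873189-50873438, plus strand: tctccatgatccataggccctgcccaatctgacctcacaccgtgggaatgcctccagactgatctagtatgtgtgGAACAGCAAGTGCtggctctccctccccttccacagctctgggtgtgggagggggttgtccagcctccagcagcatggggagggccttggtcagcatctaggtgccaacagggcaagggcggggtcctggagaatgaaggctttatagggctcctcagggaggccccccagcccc
The marked bases begin 169 bases before the start of KLK3 and 175 bases before that of KLK2, and the aligned windows are 79.2% identical. A match at this stringency is common: 9.8% of the 27305 genes with a promoter in the RefSeq table hold one. That share counts windows of 250 bases before to 50 bases after any start of a gene. A match is a description of the window and not a measure of binding.

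KLK2 was measured at 55.2 and 59.3 CPM in the DHT libraries and at 6.28 and 4.56 CPM in the enzalutamide libraries. Its log2 fold change was 3.41 ± 0.10 (SE), or 10.7-fold, with an adjusted p of 1.15e-10 in edgeR. The vehicle libraries held 8.79 and 7.49 CPM, close to the antagonist and far below the agonist. KLK3 stood at 609 and 631 CPM against 224 and 194 CPM, a 2.97-fold difference (1.57 ± 0.052 on the log2 scale, adjusted p = 3.21e-10). KLK4 had 55.6 and 59.6 CPM against 26.1 and 21.8 CPM (1.27 ± 0.073). The groups did not overlap for any of the 3 genes. KLK15 was not called.

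TMPRSS2, a membrane serine protease whose androgen-driven promoter is fused to ERG in many prostate cancers, had 441 CPM in both DHT libraries and 73.0 and 69.0 CPM with enzalutamide (6.21-fold, adjusted p = 8.35e-14). SLC45A3, the prostein gene, had 180 and 186 CPM against 34.1 and 32.1 CPM, or 5.52-fold. For both genes the replicates of a ligand lay close together and the ligands lay far apart.

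PMEPA1, a membrane adaptor that restrains TGF-β signalling, had a log2 fold change of 2.09 ± 0.039. For FKBP5, a co-chaperone of steroid receptors, the levels were 207 and 204 CPM against 77.0 and 75.3 CPM (1.43 ± 0.037). C1orf116 (1.75) and the transcription factor gene MAF (1.56) were in the same range. The elongation factor gene ELL2 (1.16) and its partner EAF2 (1.13) differed by similar amounts. CAMKK2, a kinase that activates AMPK, was higher by 0.92, and the prostaglandin receptor gene PTGER4 by 1.62.

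Other members of the list differed by less. SORD, which encodes sorbitol dehydrogenase, differed by 0.27 (453 and 452 CPM against 371 and 381 CPM), and NDRG1 by 0.38. For ACSL3, which activates fatty acids, the difference was 0.45. For all 3 the groups did not overlap. The androgen-induced genes called here were called in each of the 22 settings tried, the main one included.

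Genes known to be induced by both androgens and glucocorticoids split in direction. Of 16 listed genes 15 were tested (ANGPTL4 had too few counts), and their median log2 fold change was 0.19. In DHT 8 were higher and 2 lower, beside 8.49% and 7.28% of all genes, and 5 were not called. SGK1, a kinase that regulates sodium transport, had 10.8 and 9.81 CPM with DHT against 0.941 and 1.09 CPM with enzalutamide, where it was level with vehicle at 0.892 and 1.14 CPM. That is a 10.1-fold difference (3.33 ± 0.16, adjusted p = 9.54e-09). The zinc finger gene ZBTB16 had 125 and 126 CPM against 26.4 and 26.9 CPM (4.71-fold). PER1, a circadian repressor, was higher by 1.39, and the factor CEBPD by 1.03.

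TSC22D3, the glucocorticoid-induced leucine zipper, went the other way. It had 40.0 and 37.8 CPM with DHT and 84.1 and 81.8 CPM with enzalutamide, with vehicle between at 50.8 and 46.7 CPM. The log2 fold change was -1.09 ± 0.051 (adjusted p = 8.13e-09). The metallothionein gene MT2A was lower by a smaller amount (-0.25, adjusted p = 0.0316), and it was called in 16 of 22 settings. The call was lost without either DHT replicate at 4 h and without enzalutamide replicate 1, among others (adjusted p up to 0.228). DUSP1 (-0.06), BCL6 (0.06), CRISPLD2 (0.11), KLF15 (0.19) and MT1X (0.06) were not called.

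By the fixed rule, the 15 largest positive differences among genes with an average log2 CPM of at least 1 also held genes outside these lists. The coiled-coil gene TMCC3 had 6.56 and 6.50 CPM against 1.13 and 0.851 CPM (2.73 ± 0.16), and 3.34 on the log2 scale when each ligand was set over its own vehicle run. F5, which encodes coagulation factor V, had 8.98 and 9.53 CPM against 1.81 and 1.70 CPM (2.40 ± 0.12). RHOU, a small GTPase gene, had 191 and 188 CPM against 43.6 and 44.4 CPM (2.11 ± 0.058). The pseudokinase gene PRAG1 (2.08), the antisense RNA CTBP1-AS (2.08) and FAM110B (1.99) followed.

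TRPM8, a cold-sensing cation channel of prostate epithelium, had 5.43 and 5.04 CPM against 1.11 and 1.58 CPM (1.95 ± 0.16, adjusted p = 2.02e-06). The uncharacterised LOC101927482 reached 1.95 as well, and 3.45 over the vehicle runs. CTBP1-AS overlaps CTBP1 on the other strand, and the use of strand in the authors' counting is not given in the sources used here. All 15 had adjusted p values of at most 2.04e-06.

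**Figure D2:**
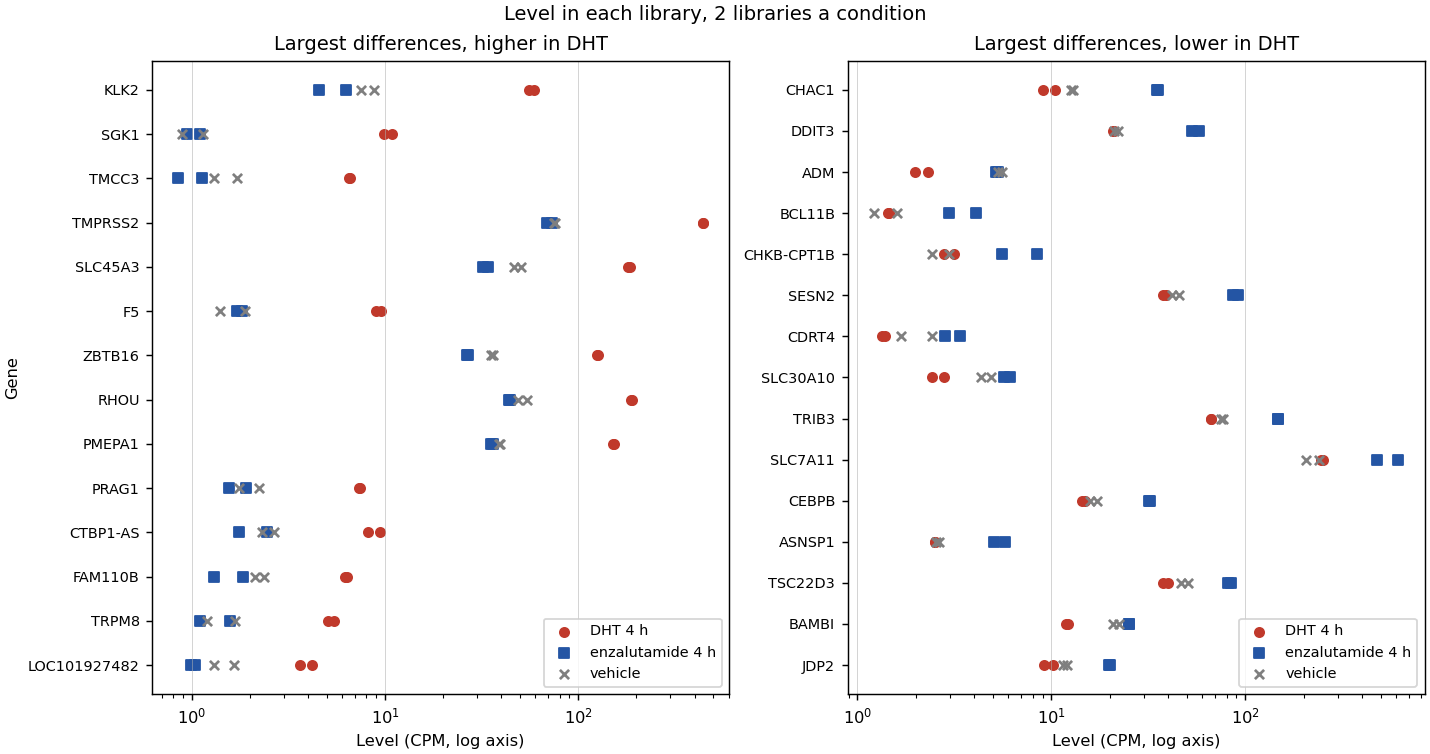
Levels (CPM, log axis) in each library for 14 of the 15 genes with the largest positive (left) and the 15 with the largest negative (right) log2 fold changes of DHT over enzalutamide, with 2 libraries a condition. On the left the vehicle crosses sit by the enzalutamide squares, as for TMPRSS2 at 75.6 and 74.7 CPM, and on the right many sit by the DHT circles, as for DDIT3 at 22.1 and 21.0 CPM.

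The ISR list moved in the opposite direction to the androgen-induced genes. Of 20 listed regulators and effectors 19 were tested, and 18 of these were lower in DHT than in enzalutamide, beside 7.28% of all genes. The median log2 fold change was -0.91, beside -0.01 over all genes, and 8 members were more than 2-fold lower. The member not called was the angiogenic factor gene VEGFA (0.13, adjusted p = 0.100), and LAMP3 was not tested.

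CHAC1, JDP2 and CEBPG of this list and the transporter gene SLC1A5 are shown with their promoters because the 250 bases before their starts hold the C/EBP-ATF core that ATF4 is known to bind. The capitals mark a match to TGATGNAA on either strand. CHAC1 carries it on the minus strand, so the marked bases read as its reverse complement.
CHAC1, chr15:40953221-40953470, plus strand: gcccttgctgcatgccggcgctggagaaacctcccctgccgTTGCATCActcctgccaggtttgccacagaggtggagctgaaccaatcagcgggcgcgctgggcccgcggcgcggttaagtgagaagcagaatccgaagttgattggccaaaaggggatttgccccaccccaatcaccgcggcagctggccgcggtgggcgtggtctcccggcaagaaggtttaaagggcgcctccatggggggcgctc
JDP2, chr14:75427772-75428021, plus strand: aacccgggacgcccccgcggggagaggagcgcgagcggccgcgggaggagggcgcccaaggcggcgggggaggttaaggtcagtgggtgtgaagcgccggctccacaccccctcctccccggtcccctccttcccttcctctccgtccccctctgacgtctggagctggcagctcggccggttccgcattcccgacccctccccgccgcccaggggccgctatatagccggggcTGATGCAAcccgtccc
CEBPG, chr19:33373863-33374112, plus strand: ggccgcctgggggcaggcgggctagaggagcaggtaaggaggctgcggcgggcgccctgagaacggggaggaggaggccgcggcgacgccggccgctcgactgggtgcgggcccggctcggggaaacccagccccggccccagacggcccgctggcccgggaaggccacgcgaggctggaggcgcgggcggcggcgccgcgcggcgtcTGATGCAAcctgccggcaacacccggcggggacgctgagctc
SLC1A5, chr19:46784815-46785064, minus strand: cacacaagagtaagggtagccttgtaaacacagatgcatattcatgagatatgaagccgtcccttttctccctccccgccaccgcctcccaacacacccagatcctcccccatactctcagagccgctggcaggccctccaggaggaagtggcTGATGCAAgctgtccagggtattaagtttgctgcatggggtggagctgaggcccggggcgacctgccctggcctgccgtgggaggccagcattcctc
The match begins 209 bases before the start of CHAC1, 16 before that of JDP2, 42 before that of CEBPG and 97 before that of SLC1A5. The shares that follow count windows of 250 bases before to 50 bases after any start of a gene. Of 17 ISR members with a RefSeq promoter, 5 hold a match (29.4%), namely ATF3, CEBPG, CHAC1, FGF21 and JDP2, all before the start. Of 10 amino acid transporter genes with one, 5 do (50%), namely SLC1A4, SLC1A5, SLC38A1, SLC3A2 and SLC7A1. Among these matches only that of SLC1A5 lies wholly before the start. Those of SLC1A4 and SLC38A1 run across it, and those of SLC3A2 and SLC7A1 begin 37 and 7 bases after it. The share over all 27305 genes of the table was 4.46%, and both lists were partly known for such elements when they were drawn up.

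CHAC1, which degrades glutathione, had 10.4 and 9.01 CPM with DHT and 35.1 and 35.4 CPM with enzalutamide. Enzalutamide was 3.63-fold above DHT (log2 fold change -1.86 ± 0.079, adjusted p = 3.35e-09), and vehicle lay near DHT at 12.9 and 12.6 CPM. DDIT3, the pro-apoptotic factor CHOP, had 21.1 and 20.7 CPM against 57.7 and 52.9 CPM (-1.40 ± 0.056, adjusted p = 2.03e-09). For both genes the DHT and vehicle libraries lay together and the enzalutamide libraries stood apart.

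The master factor ATF4 itself had 377 and 378 CPM with DHT and 608 and 585 CPM with enzalutamide (-0.66 ± 0.031, adjusted p = 7.72e-09). TRIB3, a pseudokinase that feeds back on ATF4, had 66.9 and 66.6 CPM against 147 and 146 CPM (-1.14). SESN2, a leucine sensor that inhibits mTORC1, had 39.0 and 37.4 CPM against 91.7 and 86.3 CPM (-1.22). The bZIP partners CEBPB (-1.13), JDP2 (-1.04), ATF3 (-0.81) and CEBPG (-0.71) were all lower in DHT. So were the secreted factor genes STC2 (-1.04), ADM2 (-0.91) and GDF15 (-0.56), and the mTORC1 inhibitor gene DDIT4 (-0.92).

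FGF21, an endocrine factor, had the lowest value (-2.89 ± 0.69), but at 0.0189 and 0.0558 CPM against 0.259 and 0.324 CPM it rests on few counts. Its call was lost without DHT replicate 1 (adjusted p = 0.112) and without enzalutamide replicate 2 (0.0533). PPP1R15A, the phosphatase subunit that reverses eIF2α phosphorylation, was lower by the test (-0.48, adjusted p = 0.0282), and called in 18 of 22 settings. The call was lost without DHT replicate 2 and without enzalutamide replicate 1, among others (adjusted p up to 0.246).

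Genes of amino acid supply followed the same direction by smaller amounts. Of 13 enzymes of serine, asparagine, proline and one-carbon metabolism, 9 were lower in DHT, beside 7.28% of all genes, and 4 were not called. The median log2 fold change of the list was -0.36. CTH, which makes cysteine from cystathionine, had 14.99 and 14.6 CPM against 25.6 and 27.1 CPM (-0.83 ± 0.059). The mitochondrial folate enzyme gene MTHFD2 (-0.62) and the serine pathway genes PSAT1 (-0.62), PSPH (-0.61) and PHGDH (-0.24) were also lower. The asparagine synthetase gene ASNS had 254 and 248 CPM against 322 and 342 CPM (-0.41), and its pseudogene ASNSP1, with which it may share reads, -1.10.

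Of 12 amino acid transporter genes, 7 were lower in DHT, beside 7.28% of all genes, and 5 were not called. The list median was -0.51. SLC7A11, the cystine importer, had 252 and 246 CPM with DHT against 478 and 615 CPM with enzalutamide, the widest replicate gap among the transporters called. The log2 fold change was -1.13 ± 0.095 (adjusted p = 2.18e-06), and vehicle stood at 241 and 206 CPM. SLC7A5, the large neutral amino acid transporter, had 19.0 and 18.6 CPM against 37.2 and 37.9 CPM (-0.996 ± 0.048). Its heavy chain partner SLC3A2 differed by -0.58, SLC1A4 by -0.79, the glycine transporter gene SLC6A9 by -0.75, SLC7A1 by -0.57 and the glutamine transporter gene SLC1A5 by -0.45. The members not called ranged from -0.18 (SLC38A2) to 0.18 (SLC43A1).

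The cytosolic aminoacyl-tRNA synthetases, which charge tRNAs, were divided. Of 20 genes, 10 were lower in DHT, 1 was higher and 9 were not called, with a median of -0.12. The shares over all genes were 7.28% lower and 8.49% higher. The lowest were the cysteine enzyme CARS (-0.66), the glycine enzyme GARS (-0.45) and the alanine enzyme AARS (-0.41). AARS had 552 and 551 CPM against 735 and 731 CPM. The arginine enzyme RARS was the member that was higher (0.16, adjusted p = 0.00564), a call lost without DHT replicate 1 (0.0542).

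Other stress programmes differed less. Among 22 ER chaperones and unfolded protein sensors, 4 were lower and 18 were not called, with a median of -0.04. The share of all genes called in either direction was 15.8%. The factor XBP1 had 158 and 155 CPM against 255 and 254 CPM (-0.70), and the ERAD gene HERPUD1 90.3 and 95.7 CPM against 148 and 149 CPM (-0.68). The defining chaperone gene HSPA5 was at -0.03 and not called. The other called members, ATF6 (-0.15) and HYOU1 (-0.10), lost their calls without either DHT replicate, with adjusted p values up to 0.287.

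The antioxidant targets of NRF2 numbered 21 tested genes, with 3 lower, 1 higher and 17 not called, and a median of -0.03. A share of 15.8% of all genes was called in either direction, so this count is near that background. SLC7A11, which is also on the transporter list, was the only 1 of them past 2-fold. HMOX1 (-0.38), FTH1 (-0.11) and GSR (0.10) were each called at an adjusted p above 0.02, and without DHT replicate 1 these calls were lost, at 0.175, 0.113 and 0.156. The canonical targets NQO1 (-0.03), GCLM (-0.04) and TXNRD1 (0.01) were not called.

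Cytosolic heat shock chaperones were higher in DHT, with 7 of 9 tested genes called, beside 8.49% of all genes higher. The other 2 were not called, and the list median was 0.33. HSPA1B had 268 and 274 CPM against 194 and 181 CPM (0.53 ± 0.043), with vehicle above both at 300 and 320 CPM. It is nearly identical to HSPA1A, which was not tested, so its level is uncertain. HSPA8, the constitutive chaperone, had 2376 and 2350 CPM against 1763 and 1780 CPM (0.42), and DNAJB1 differed by 0.43 and HSPH1 by 0.39. For HSPA1B, HSPA8, DNAJB1 and HSPH1 the DHT libraries were nearer to vehicle than the enzalutamide libraries, which were the low ones.

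**Figure D3:**
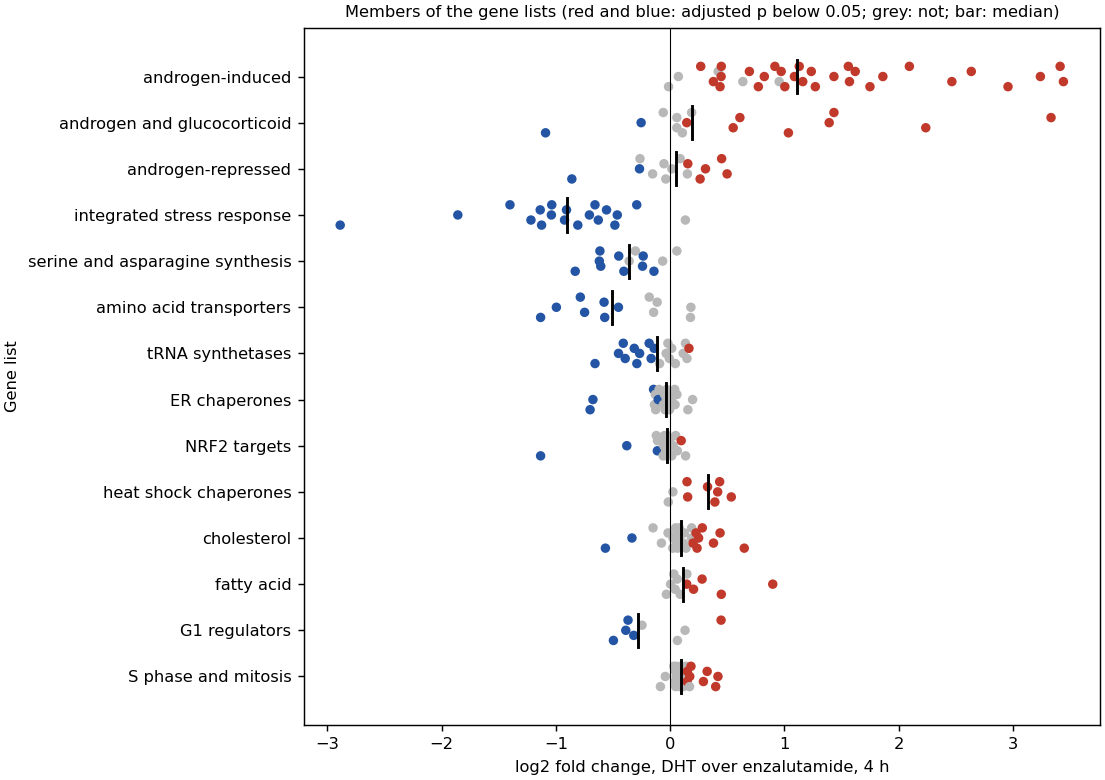
Each point is a gene of 1 of 14 lists, the x axis is its log2 fold change of DHT over enzalutamide at 4 h, red and blue mark an adjusted p below 0.05, and the black bar is the list median. The androgen-induced list centres on 1.11 and the integrated stress response list on -0.91, the amino acid transporter list on -0.51, and the other 11 lists between -0.36 and 0.33.

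Outside these lists, the 15 largest negative differences held genes of several kinds. ADM, the vasodilator adrenomedullin, had 2.30 and 1.97 CPM with DHT and 5.31 and 5.17 CPM with enzalutamide (-1.29 ± 0.13, adjusted p = 1.15e-05). Here vehicle, at 5.53 and 5.33 CPM, lay with the antagonist. The factor BCL11B had 1.43 and 1.45 CPM against 2.96 and 4.07 CPM (-1.29 ± 0.18). BAMBI, a decoy receptor for TGF-β, had 12.1 and 11.9 CPM against 25.2 and 25.3 CPM (-1.07), and the manganese exporter gene SLC30A10 differed by -1.17.

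CHKB-CPT1B, a read-through transcript that shares sequence with its parent genes, stood at -1.25 and is uncertain for that reason. CDRT4 was the 1 gene of these 30 whose call was lost in a setting (-1.19 ± 0.26, adjusted p = 0.00672, and 0.0527 without DHT replicate 2). Over the vehicle runs of each prefix it was at -0.50.

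Among steroid receptors and lineage factors, 15 of 18 listed genes were tested (not ESR1, GATA3 or ERG). Of these, 6 were higher in DHT, 4 were lower and 5 were not called, with a median of 0.08. Shares over all genes were 8.49% higher and 7.28% lower. The glucocorticoid receptor gene NR3C1 was low throughout, at 0.754 and 0.595 CPM with DHT, 2.02 and 1.95 CPM with enzalutamide, and 0.479 and 0.609 CPM in vehicle. Enzalutamide was 2.93-fold above DHT (log2 fold change -1.55 ± 0.22, adjusted p = 0.000232), and the DHT libraries overlapped those of vehicle. The factor SOX9 was also lower with DHT (5.28 and 5.93 CPM against 11.5 and 11.1 CPM), but vehicle, at a mean of 10.8 ± 0.388 CPM (SD, n = 2), lay with enzalutamide.

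The progesterone receptor gene PGR was at -0.76 (adjusted p = 0.00767), and its call was lost in DESeq2, without DHT replicate 1 and without enzalutamide replicate 1 (adjusted p up to 0.0728). The pioneer factor gene FOXA1 differed by -0.19, with 499 and 500 CPM against 570 CPM in both enzalutamide libraries. The epithelial factors GRHL2 (0.84), EHF (0.69) and SPDEF (0.49) were among the 6 higher members. GATA2 (0.08) and HOXB13 (-0.13) were not called. For GATA2 the levels were 184 and 186 CPM against 184 and 167 CPM.

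Genes known to be repressed by androgen showed little of that pattern at 4 h. Of 14 tested, 2 were lower in DHT, 5 were higher and 7 were not called, with a median of 0.05, beside 7.28% and 8.49% of all genes. OPRK1, the kappa opioid receptor gene, had 20.7 and 21.0 CPM against 37.3 and 38.4 CPM (-0.86 ± 0.063). CAMK2N1, a CaMKII inhibitor gene, differed by -0.27 (476 and 472 CPM against 570 and 572 CPM). MYC was higher with DHT than with enzalutamide (162 and 165 CPM against 137 and 135 CPM, 0.26), and vehicle was above both at 171 and 173 CPM.

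Mediator subunits bridge enhancers and RNA polymerase II, and of 30 genes 2 were higher, 3 were lower and 25 were not called, with a median of -0.03. These counts are near the background of 8.49% and 7.28% of all genes. The kinase gene CDK8 had 78.3 and 78.9 CPM against 115 and 119 CPM (-0.57 ± 0.047). The other called subunits differed by at most 0.36, and without DHT replicate 1 the counts were 0 higher and 1 lower. The other genes that the study names for expression were CPEB4, a translational regulator (-0.64, with 78.3 and 77.9 CPM against 109 and 133 CPM), and BIRC5 (0.08), CDK1 (0.17, adjusted p = 0.0522) and CEMIP (-1.33, adjusted p = 0.0584), which were not called. CEMIP had between 0.112 and 0.447 CPM in the 4 libraries, and CDK1 was called in 9 of 22 settings.

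Lipid genes differed by small amounts at 4 h. Of 26 cholesterol genes, 8 were higher, 2 were lower and 16 were not called, with a median of 0.10. Beside these counts, 8.49% of all genes were higher and 7.28% lower. MSMO1 (0.28), HMGCS1 (0.25) and IDI1 (0.24), enzymes of sterol synthesis, were among the higher ones, and HMGCS1 had 149 and 148 CPM against 122 and 128 CPM. The 2 lower genes were the cholesterol exporters ABCA1 (-0.57) and ABCG1 (-0.33), and the call of ABCG1 was lost without DHT replicate 1 (adjusted p = 0.0546). Of 12 fatty acid genes, 5 were higher and 7 were not called, with a median of 0.12, and the elongase gene ELOVL7 led them at 0.90 (32.9 and 34.5 CPM against 17.2 and 18.9 CPM).

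Genes of growth signalling were mixed. Of 12 insulin and IGF genes, 3 were higher, 2 were lower and 7 were not called, with a median of 0.03. Over all genes tested 8.49% were higher and 7.28% lower, the background for each list count in this paragraph. The receptor gene IGF1R had 56.8 and 55.8 CPM against 23.3 and 24.5 CPM, a 2.35-fold difference (1.24 ± 0.049, adjusted p = 1.82e-09). Its adaptors IRS2 (0.81) and IRS1 (0.65) were higher as well, and FOXO3 (-0.25) and PIK3R3 (-0.19) were lower. Of 14 immediate early genes tested, 5 were higher and 9 were not called (median 0.13), with JUN at 0.54 and KLF6 at 0.44. Of 12 feedback inhibitors of MAPK signalling, 4 were higher and 8 were not called (median 0.11), with DUSP10 at 0.58, ERRFI1 at 0.55 and DUSP4 at 0.53. The largest difference of this list went the other way, at -1.89, for a member that was not called.

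Among 13 hypoxia and glucose-sensing genes, 4 were higher, 2 were lower and 7 were not called (median 0.13). The background for this and the next lists was 8.49% of all genes higher and 7.28% lower. The arrestins TXNIP (0.59) and ARRDC4 (0.54), which report glucose, were higher in DHT. TXNIP had 378 and 382 CPM against 257 and 249 CPM, with vehicle at 423 and 410 CPM. Of 10 glycosylation genes, 5 were higher and 5 were not called (median 0.14). ST6GALNAC1, which makes sialyl-Tn, had 2.83 and 2.92 CPM against 0.753 and 0.567 CPM (2.13 ± 0.16), and UAP1, the last step to UDP-N-acetylglucosamine, had 384 and 380 CPM against 189 and 193 CPM (1.00). Of 10 polyamine genes, 4 were higher and 6 were not called (median 0.10), led by AMD1, the decarboxylase that supplies spermidine synthesis (0.61).

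Cell cycle genes differed little at this time. Of 27 genes of S phase and mitosis, 8 were higher in DHT and 19 were not called, with a median of 0.10 and a largest value of 0.42 for CCNE1. RRM2, a ribonucleotide reductase subunit, had 146 CPM in both DHT libraries against 104 and 117 CPM (0.40), and the replication licensing gene CDC6 differed by 0.32. Without DHT replicate 1, 4 of them were called higher. Regulators of G1 differed in opposite ways: CCND1, cyclin D1, had 357 CPM in both DHT libraries against 262 and 263 CPM (0.45), while the inhibitors CDKN1A (-0.39) and CDKN1B (-0.37) were lower. Of the 8 tested, 1 was higher, 4 were lower and 3 were not called (median -0.28). For both lists of this paragraph the background was 8.49% of all genes higher and 7.28% lower. CDKN2B and CDKN2D were called at adjusted p values of 0.041 and 0.0374, and without either DHT replicate the list held 2 lower genes.

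Vehicle libraries were placed on a log2 scale set by the ligands, with 0 at the enzalutamide level and 1 at the DHT level. For the 129 genes more than 2-fold higher in DHT, vehicle lay nearer enzalutamide or beyond it for 115 and nearer DHT or beyond it for 14, with a median position of 0.156. Over all 1320 genes called higher the split was nearly even, at 652 on the enzalutamide side and 668 on the DHT side, with a median of 0.511. Vehicle was not between the ligands for many of them, with 241 beyond enzalutamide and 326 beyond DHT. TMPRSS2 was at 0.031 and SLC45A3 at 0.225. For the 60 genes more than 2-fold lower in DHT, vehicle lay on the enzalutamide side for 26 and on the DHT side for 34, with a median of 0.615. Over all 1133 genes called lower it was on the enzalutamide side for 341 and on the DHT side for 792, with a median of 0.746. It lay beyond enzalutamide for 67 of these and beyond DHT for 297. ADM was at -0.040 and CHAC1 at 0.788, so the lower genes held members of both kinds. DDIT3 was at 0.967, and SLC7A11 and NR3C1 lay beyond DHT at 1.14 and 1.19. Vehicle has no stated time, so its place against the 4 h libraries carries any difference in time in culture.

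The same contrast was then read in the 24 h libraries, which are separate samples. There, 4864 genes (31.3%) were higher and 5228 (33.6%) lower in DHT, beside 8.49% and 7.28% at 4 h, and the median over all genes was -0.03. Of the 129 genes above, 115 were also higher at 24 h, 9 were not called and 5 had turned (AGAP12P, FAM49A, FSBP, TIPARP and TSPY2, named after their values were seen). Of the 60 lower genes, 44 stayed lower, 15 were not called and HIST1H4K had turned. TIPARP, a mono-ADP-ribosyltransferase gene, was at 1.30 at 4 h and -0.21 at 24 h (adjusted p = 0.0312).

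A test of the difference between the times (interaction) was passed by 3661 genes with a more positive contrast at 24 h (23.5%) and 3489 with a more negative one (22.4%). In the column names at 24 h the DHT libraries carry different prefixes and the enzalutamide libraries share a single prefix, unlike at 4 h. Time and prefix can therefore not be fully told apart in these changes. The kallikrein contrasts were larger at 24 h. KLK3 reached 2095 and 2139 CPM with DHT at 24 h (mean 2117 ± 31.1, SD, n = 2) against a mean of 110 ± 2.02 CPM (SD, n = 2) with enzalutamide, and its log2 fold change was larger by 2.70 ± 0.074 (adjusted p = 4.79e-11). KLK2 was larger by 2.62. TRPM8 had 18.2 and 17.9 CPM against 0.394 and 0.403 CPM at 24 h, an increase of 3.55 in the log2 contrast, and F5 increased by 2.45. TM4SF1 (3.46), ADAM7 (3.31), ZNF812P (3.28) and SPOCK1 (3.12) were the next largest among genes with an average log2 CPM of at least 1.

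Other early differences were smaller at 24 h. SGK1 had 1.59 and 1.22 CPM with DHT at 24 h and 0.651 and 0.766 CPM with enzalutamide, and its contrast changed by -2.32 ± 0.28 (adjusted p = 1.94e-05). TMCC3 changed by -1.68 and ZBTB16 by -0.72, while FAM110B, with 2.36 and 2.12 CPM against 2.05 and 1.92 CPM, was not called at 24 h. TMPRSS2 (2.64 at 4 h and 2.68 at 24 h) and SLC45A3 (2.47 and 2.63) had nearly the same size at both times, and for SLC45A3 the change of 0.16 did not pass the test (adjusted p = 0.0546). Both glucose-sensing arrestins turned. ARRDC4 had a log2 fold change of -0.51 at 24 h (adjusted p = 1.54e-06). TXNIP had 241 and 234 CPM with DHT against 441 and 443 CPM at 24 h, a log2 fold change of -0.90 after 0.59 at 4 h.

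The lists separated by time as well. The androgen-induced list had a median of 1.11 at 4 h and 1.91 at 24 h, with positive interactions for 21 members and negative ones for 5. Beside the interaction counts of this paragraph, 23.5% of all genes had a positive and 22.4% a negative interaction. The ISR list had medians of -0.91 and -0.97, with 4 positive and 7 negative interactions among its 19 tested members. The contrast of ATF3 was smaller at 24 h (-0.81 and -0.13, interaction adjusted p = 1.73e-05) and that of DDIT3 larger (-1.40 and -1.91). Cell cycle genes went from a median of 0.10 to 2.01, with 27 of 27 higher in DHT at 24 h and 27 positive interactions. RRM2 had 278 and 254 CPM against 42.9 and 40.9 CPM at 24 h. Cholesterol genes went from 0.10 to 0.98 and fatty acid genes from 0.12 to 1.24. The androgen-repressed list reached a median of -0.89, after 0.05 at 4 h, with OPRK1 at -2.55 and CAMK2N1 at -1.95.

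**Figure D4:**
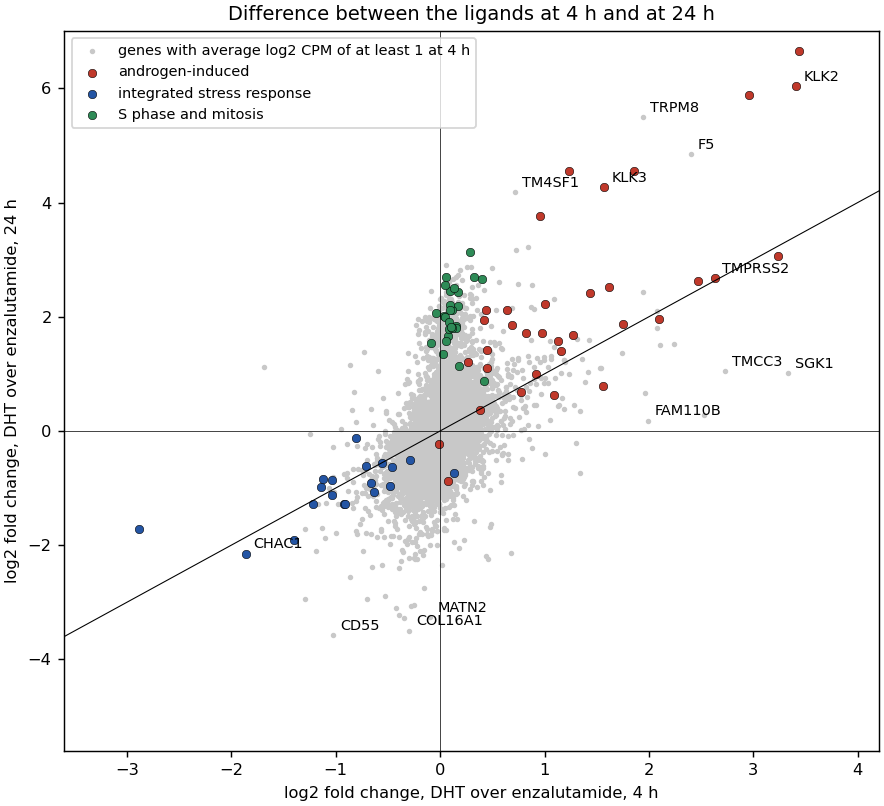
Grey points are genes with an average log2 CPM of at least 1 in the 4 h libraries, and coloured points are list members at any level. The log2 fold change of DHT over enzalutamide is on the x axis at 4 h and on the y axis at 24 h. The diagonal marks equal values, and the axes have fixed limits, so a point beyond them would not be drawn. Cell cycle genes (green) lie near 0 at 4 h and around 2.01 at 24 h. Stress response genes (blue) have medians of -0.91 at 4 h and -0.97 at 24 h, with members on either side of the diagonal. KLK2 and KLK3 lie above the diagonal, while SGK1 and TMCC3 lie below it.

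The genes whose contrast fell most by 24 h had mostly small early differences. VWA2 differed by -0.40 at 4 h and changed by a further -2.83. The contrasts of COL16A1 (-3.20), MATN2 (-3.16) and MCTP1 (-2.79) changed by similar amounts, and these 3 were not called at 4 h. COL16A1 had 4.02 and 4.11 CPM with DHT at 4 h and 1.04 and 1.10 CPM at 24 h, while with enzalutamide it went from 6.28 and 3.81 CPM to 10.8 and 13.3 CPM. GAGE2A (-2.82) belongs to a family of near-identical copies, so its reads may be split among them.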

How the data were processed

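RNA-seq of LNCaP cells was compared between DHT and enzalutamide at 4 h, with 2 libraries per ligand. The submitters' processing notes name TopHat2, Partek and hg19, and the authors deposited unnormalized estimated counts. Part of the values are fractional, and all were rounded to whole numbers for testing. edgeR 4.0.16 in R 4.3.3 (quasi-likelihood, TMM factors, filterByExpr, Benjamini-Hochberg) fitted 5 conditions over 10 libraries, after the 3 runs of vehicle replicate 1 were summed as 1 sample. A gene absent from the vehicle table was set to 0 there. Called means an adjusted p below 0.05 over all 15555 genes. With 2 libraries per condition, p-values measure the spread between these cultures only.

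On simulated counts for this comparison (15401 genes), the fit recovered 96% of 100 genes changed 2-fold and 87% of 100 changed 1.5-fold, with 19 unchanged genes called. The simulation gave each gene the typical spread of genes at its level, equal in all conditions, and changed no genes of low count. The real replicate pairs differed in spread (chi-square 2.03 for DHT and 9.83 for enzalutamide), so these rates do not carry over to the data or to low genes. Deviations of same-numbered libraries were correlated between -0.103 and 0.0633 (-0.0478 for the 2 groups compared), so no pairing by number was seen. These correlations run over all genes tested, low counts included, and cannot exclude a pairing. Named by rule were the 15 largest differences in each direction (average log2 CPM of at least 1, no overlap), 4 called members of each of 25 lists with the largest differences, all genes the study names, and the 5 largest interactions in each direction. A few genes picked out by this rule are not reported here. Other list members are named as examples after their values were seen. The lists and the comparison were chosen with earlier results of these data known. Motifs were searched in RefSeq promoters (GRCh38.p14), from 250 bases before to 50 bases after each start. List shares are given, against all genes of that table, only for the ISR (17 of 19 tested members matched) and amino acid transporter lists (10 of 12). The other lists searched had a smaller part matched and their shares were left out: androgen-induced (22 of 34), amino acid enzymes (8 of 13) and tRNA synthetases (13 of 20). Alternatives were DESeq2 1.42.0, limma 3.58.1 on log2(CPM + 1), other scalings and filters, fewer conditions, every vehicle column as a sample, unrounded counts, a replicate block and each library left out.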

Additional observations from a re-analysis of the deposited data

Results flagged for a closer look

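The genes given here had a contrast of DHT over enzalutamide that differed between 4 h and 24 h by the interaction test in edgeR (adjusted p below 0.05), among the genes named by rule as largest early differences, as genes the study names, or as largest interactions. Values are the log2 contrast at 24 h minus that at 4 h. The prefixes in the column names also differ between these contrasts. The background share was 23.5% of genes tested with a positive change and 22.4% with a negative one.

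Among genes higher in DHT at 4 h, the contrast was larger at 24 h for TRPM8 (3.55), TM4SF1 (3.46), ADAM7 (3.31), ZNF812P (3.28), SPOCK1 (3.12), KLK3 (2.70), KLK2 (2.62) and F5 (2.45). SPOCK1 was called at 4 h in 13 of 22 settings, and the call was lost without any 1 of the 4 libraries compared (adjusted p up to 0.21). The contrast was smaller for SGK1 (-2.32), FAM110B (-1.81), TMCC3 (-1.68), ZBTB16 (-0.72) and RHOU (-0.60).

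Among genes lower in DHT at 4 h, the contrast was more negative at 24 h for VWA2 (-2.83), ADM (-1.65), ASNSP1 (-0.77), SLC7A11 (-0.56), DDIT3 (-0.51) and FOXA1 (-0.17). It moved toward 0 for CHKB-CPT1B (1.19), CEBPB (0.28) and TRIB3 (0.16).

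Genes not called at 4 h with a difference between the times were CDK1 (2.01), BIRC5 (1.59), COL16A1 (-3.20), MATN2 (-3.16), GAGE2A (-2.82), MCTP1 (-2.79), VEGFA (-0.86) and GATA2 (-0.22).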

How the results depend on the processing

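Counts at 2 libraries a group moved with the fit. Without 1 library, genes higher in DHT numbered 740 to 1397 and lower ones 496 to 1311, with 740 and 516 without DHT replicate 1 and 795 and 496 without DHT replicate 2. Above 2-fold with an unadjusted p, the ranges were 183 to 211 and 110 to 127, and those of the interaction 3162 to 3725 (positive) and 2805 to 3457 (negative). With the 4 libraries alone, 910 genes were higher and 668 were lower. The 2-fold counts were 62 higher and 10 lower in limma on log2(CPM + 1), where the added constant shrinks low genes, and 107 and 35 with a minimum of 1 CPM in 2 libraries, which tests fewer low genes. There were 60 lower genes in DESeq2 and 172 with no filter. The causes in the other cases were not tested.

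With the replicate number as a block, 1180 genes were higher and 996 lower, 175 and 108 above 2-fold, and 3533 and 3359 had a positive or negative interaction. The block moved none of these counts by over 1.5 times, and no pairing of the samples by number was seen.

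Of the named genes, 3 values turned, and none was called in the main fit: COL16A1 was at 0.093 without enzalutamide replicate 1 and -0.62 without enzalutamide replicate 2, and MATN2 was at 0.023 without DHT replicate 2, 0.040 without enzalutamide replicate 1 and -0.22 without enzalutamide replicate 2. In 90 other combinations of gene and setting a call was lost, in 21 one was gained, and in 2734 the direction and the side of the threshold were kept. Of the list counts, 982 stayed within 1.5 times and 68 did not, mostly in lists with few calls. Each ligand over its own vehicle run differs from the direct contrast by the difference of 2 runs of 1 vehicle sample (-1.54 to 0.44 for 30 genes). Genes of a few counts per library, such as FGF21, are limited by depth.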

Other observations

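The markers of other cell types held 1 gene that passed the test. VWF, the endothelial von Willebrand factor gene, had 18.3 and 17.9 CPM with DHT and 12.7 and 13.03 CPM with enzalutamide (log2 fold change 0.49, adjusted p = 9.27e-05 in edgeR), and 12 of the 15 markers had too few counts to be tested. At 24 h its log2 fold change was 1.27.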
